A study of Homo sapiens with 10 samples.

Results

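The genes described here are 45 parts of the DNA replication machinery, chosen by gene name from a list of the proteins that mark, open and copy DNA in S phase. All 45 were found among the 50868 genes of the deposited table, and all 45 had at least 500 reads in each pair of libraries compared. The data are 4 RNA libraries of Kasumi-1, a human myeloblast cell line whose 8;21 chromosome translocation fuses RUNX1 (AML1) to RUNX1T1 (ETO). A retrovirus carried E2-2, E2A or HEB, each with an HA tag, into the cells, and MIGR1 alone served as the control vector. GFP-positive cells were sorted for RNA at day 4 of infection. E2-2, E2A and HEB are the E proteins made from TCF4, TCF3 and TCF12, and the study asked how they differ in this leukemia. All 4 groups share the same cell line, sort and day, at 4 to 5 passages per the labels, and every transduced cell keeps its own TCF3 and TCF12. The 6 ChIP and input samples of the series were not analysed here.

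Library totals ran from 14816708 to 17673090 counts. Each transduced gene was highest in its own library. TCF4 stood at 823 CPM (scaled counts per 1000000 reads) in E2-2 and at 0.0604 to 0.256 in the other libraries. TCF3 stood at 1312 CPM in E2A and at 200.4 to 254 elsewhere, and TCF12 at 836 CPM in HEB and at 145 to 168 elsewhere. The 6 myeloblast markers (RUNX1, RUNX1T1, KIT, CD34, CD33 and MPO) were present in every library, with a summed level of 12726 to 19720.4 CPM. CD33 was 3.03- to 4.08-fold higher and CD34 1.53- to 1.95-fold lower in the E protein libraries than in vector, and the part of such a shift in the results below was not tested. Markers of other cells were low: 7 lymphoid genes summed to 5.62 to 12.5 CPM, 6 erythroid and megakaryocytic genes to 5.14 to 8.34 CPM with HBA1 and HBB at 0 reads, and 6 fibroblast, epithelial or packaging cell genes to 45.2 to 61.9 CPM, most of it EPCAM.

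With 1 library in each group there is no test of the conditions and no p-value. Every fold is the ratio of scaled counts, and the range in parentheses is its 95% exact counting interval, and it does not cover how cultures vary. The word called marks a gene that has 30 or more reads over both libraries, a fold of 2 or more in either direction, and an interval that leaves out 1. Calls describe these libraries and not the conditions. All comparisons with vector share the single vector library.

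Replication begins when the origin recognition complex marks start sites and, with CDC6 and CDT1, loads the MCM2 to MCM7 helicase in an inactive form. CDC45, GINS and MCM10 then switch the helicase on, polymerase alpha with primase lays down primers, and polymerases epsilon and delta copy the strands with the PCNA clamp. Many of these genes are classic targets of E2F transcription factors and are transcribed as cells pass from G1 into S phase, so their RNA in a bulk sample follows how many cells are cycling. In a bulk library, fewer cells in S phase and less RNA per cell cannot be told apart.

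The replication genes differed little between the libraries. None of the 45 was called higher or lower in E2-2 against vector, where 12.0% of 13884 genes tested were called. None was called in E2A (6.47% of 13901 genes) or in HEB (3.78% of 13695 genes). With a smaller fold of at least 1.5 the only member past the rule was RRM2, higher in E2-2, beside 23.0% of all genes in either direction and 13.5% in the higher one. No member passed 1.5-fold in E2A (13.4% of all genes) or in HEB (8.53%). Among genes with at least 500 reads, a depth closer to that of the members, the 2-fold rule called 6.36% in E2-2, 2.33% in E2A and 0.894% in HEB. The 1.5-fold rule called 16.3%, 6.95% and 3.36% of those genes.

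The members also lay close together. In E2-2 their log2 folds had a median of -0.04 and ran from -0.46 (POLD2) to 0.71 (RRM2), beside a median of -0.03 over all genes tested. Of the members, 35 were within 1.2-fold of vector, which is 77.8%, against 45.4% of all genes tested and 53.7% of those with at least 500 reads. The members' interquartile range was 0.34 on the log2 scale, against 0.60 for all genes tested and 0.47 for genes with at least 500 reads. In E2A the median log2 fold was -0.05 (all genes -0.01), with extremes at ORC4 (-0.51) and RRM2 (0.47). In HEB the median was 0.04 (all genes 0.01), with extremes at ORC4 (-0.13) and RRM2 (0.35). Within 1.2-fold of vector were 38 members in E2A (84.4%, against 58.5% of all genes and 70.8% of those with at least 500 reads). In HEB there were 42 (93.3%, against 67.8% and 81.7%). Summed over all 45 genes, the level was 7556 CPM in vector, 7664 in HEB, 7478 in E2A and 7627 in E2-2. The sum in E2-2 was 1.01-fold (1.00 to 1.02) that in vector.

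**Figure D1:**
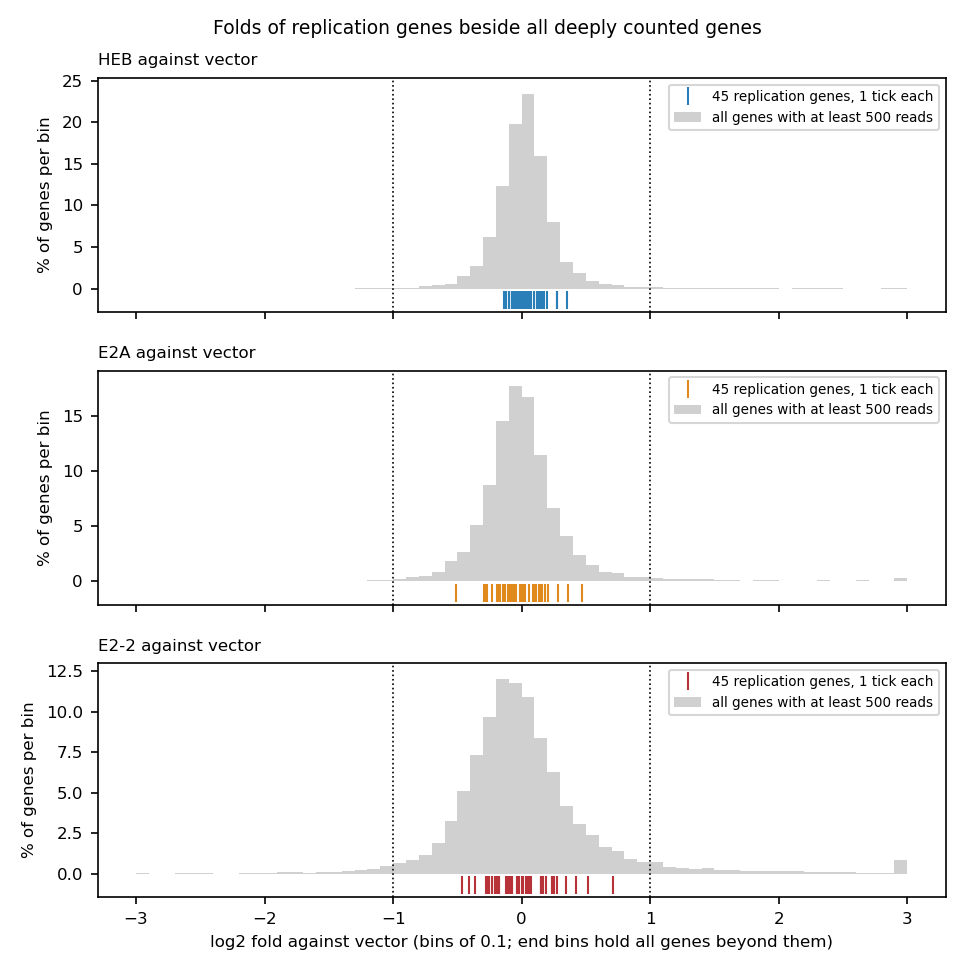
Log2 fold against vector on the horizontal axis, 1 panel per E protein library. Grey bars give the percent of all genes with at least 500 reads in each bin of 0.1, coloured ticks mark the 45 replication genes, and dotted lines mark 2-fold; no tick reaches a dotted line, and the tick farthest to the right in each panel is RRM2.

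Small differences were nonetheless larger than counting error for many members. In E2-2 the interval lay above 1 for 14 members and below 1 for 12, shares of 31.1% and 26.7% beside 27.3% and 30.8% of all genes tested. In E2A it lay above 1 for 11 and below for 14 (22.7% and 24.2% of all genes), and in HEB above 1 for 14 and below for 5 (21.1% and 16.9% of all genes). Whether an interval leaves out 1 depends on depth. Among genes with at least 500 reads the shares above and below 1 were 30.6% and 39.4% in E2-2, 26.3% and 31.3% in E2A, and 27.1% and 20.4% in HEB. Under all 3 ways of scaling the libraries, 14 members kept an interval above 1 and 11 one below 1 in E2-2. The members on either side in E2-2 are described below by role.

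**Figure D2:**
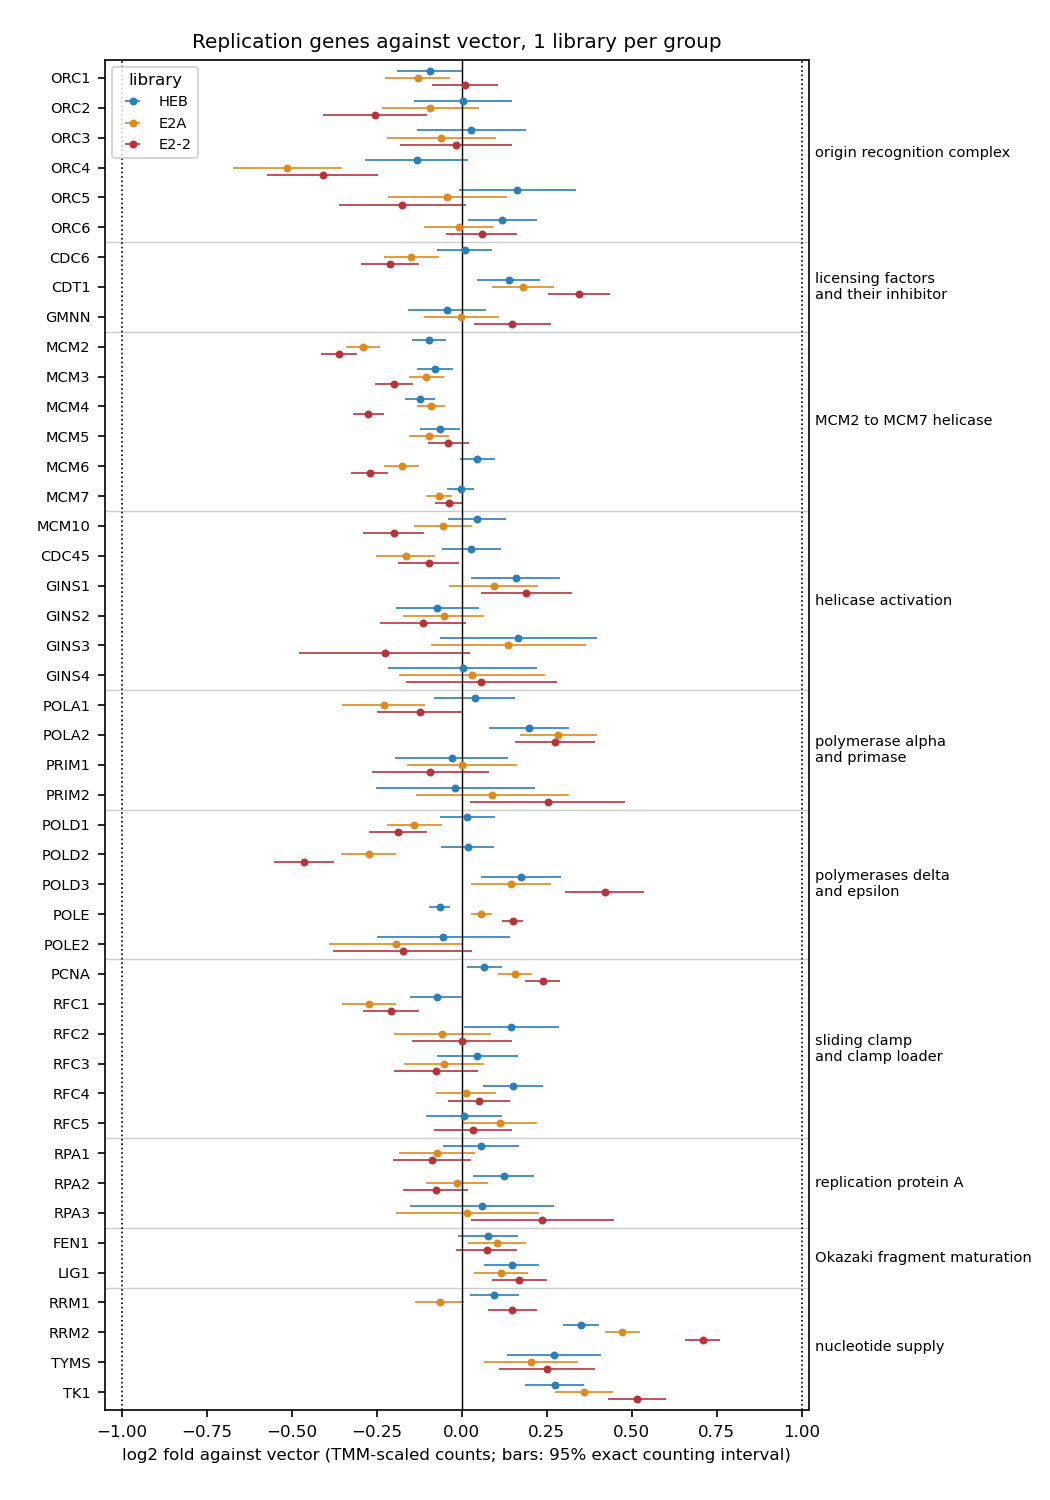
Log2 fold of each of the 45 genes against vector, grouped by role, with HEB in blue, E2A in orange and E2-2 in red and bars for 95% exact counting intervals. Dotted lines mark 2-fold; RRM2 and TK1 lie farthest to the right, and POLD2, ORC4 and MCM2 farthest to the left.

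The promoters of these genes were searched for short motifs, since the members share a known mode of control. RefSeq promoters (GRCh38.p14, 250 bases before to 50 after a transcription start) were found for 39 of the 45 genes, in 50 windows, because some genes have several starts. GINS4, MCM4, MCM5, POLD3, RPA2 and RPA3 had no match in this table. An E2F motif was defined as TTTCCCGC, TTTGGCGC, TTTGCCGC or TTTCGCGC on either strand. It was found in 19 of the 50 member windows (38.0%), 1 for each of 19 genes, against 3.31% of all 35116 promoters and 4.73% of the promoters of genes with at least 30 reads. The CCAAT box (CCAAT on either strand) was in 58.0% of member windows and 34.6% of all promoters. The E-box letters CAGCTG or CAGGTG, which E proteins are known to bind, were in 20.0% of member windows and 34.5% of all promoters. The CHR element (TTTGAA), known from genes of the later cell cycle, was in 1 member window (RRM1), against 15.2% of all promoters. No base composition was matched in these shares, and a match of letters is not a bound site.

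The 14 genes with an E2F match wholly upstream of a start had a median log2 fold of 0.07 in E2-2 against vector. The 25 genes that had a promoter in the table and no such match had a median of -0.09. The 2 groups overlapped over most of their range, from -0.27 to 0.34 and from -0.46 to 0.71. The group of 25 includes CDC6, GINS1, GINS3, MCM2 and POLE2, whose E2F match crossed or followed the start. Their log2 folds in E2-2 were -0.21, 0.19, -0.23, -0.36 and -0.17. The medians of the groups thus depend on the window chosen, and no difference between the groups is read from them. The highest member, RRM2, held the CCAAT letters and none of the E2F letters. Shown here are 30 bases around the upstream E2F match nearest to the start for the 3 highest and the 3 lowest of these 14 genes in E2-2, with matches in capitals, read 5′ to 3′ on the gene's strand.
CDT1: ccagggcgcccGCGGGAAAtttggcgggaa
POLA2: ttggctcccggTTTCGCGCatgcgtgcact
TYMS: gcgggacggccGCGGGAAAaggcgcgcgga
MCM6: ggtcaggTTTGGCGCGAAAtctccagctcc
MCM3: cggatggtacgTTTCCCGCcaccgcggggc
POLA1: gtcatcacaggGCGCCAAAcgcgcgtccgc
The CDT1 stretch is chr16:88803743-88803772 (plus strand), with its match beginning 35 bases before the start. The POLA2 stretch is chr11:65261898-65261927 (plus) and the TYMS stretch chr18:657603-657632 (plus), with matches 53 and 39 bases before the start. The MCM6 stretch is chr2:135876511-135876540 (minus); its run of capitals holds 2 overlapping matches, of 4 upstream in that promoter. The MCM3 stretch is chr6:52284898-52284927 (minus) and the POLA1 stretch chrX:24693770-24693799 (plus). Their matches lie 174 and 137 bases before the start. GCGGGAAA, in CDT1 and TYMS, is the reverse complement of TTTCCCGC in MCM3. The printed genes were picked from both ends of the folds, and whether the letters bear on direction was not tested.

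**Figure D3:**
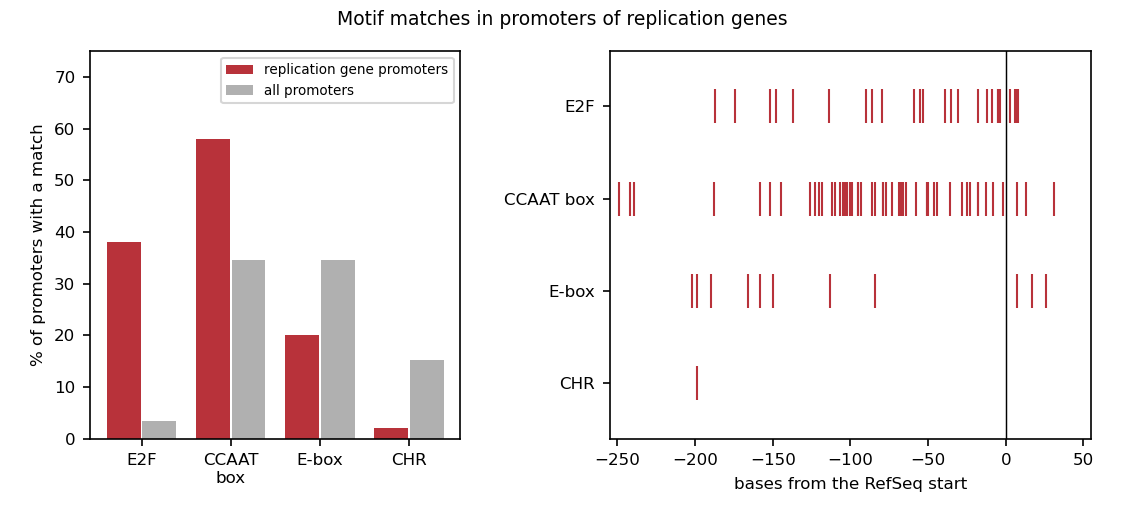
Left, percent of promoter windows with at least 1 match of each motif, for the 50 windows of replication genes (red) and all 35116 promoters (grey). Right, position of each match in the members' windows in bases from the RefSeq start; the E2F bar stands at 38.0% against 3.31%, and CCAAT boxes gather upstream of the start.

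The origin recognition complex, ORC1 to ORC6, binds the sites where replication can begin. Its summed level was 377 CPM in vector, 378 in HEB, 347 in E2A and 358 in E2-2. ORC4 (ENSG00000115947, chromosome 2, 147930397 to 148021604) had the lowest fold in E2-2 against vector among ORC1 to ORC6. It stood at 46.9 CPM in vector, 42.8 in HEB, 32.9 in E2A and 35.3 in E2-2. Against vector, ORC4 was lower in E2A by a factor of 1.43 (1.28 to 1.59) and in E2-2 by 1.33 (1.19 to 1.49), so the E2A and E2-2 libraries stood below the others. The highest fold in E2-2 was that of ORC6 (ENSG00000091651, chromosome 16, 46689643 to 46698394). ORC6 stood at 95.9, 104, 95.3 and 99.9 CPM in vector, HEB, E2A and E2-2. Its fold over vector was 1.04 (0.969 to 1.12) in E2-2 and 1.09 (1.01 to 1.16) in HEB. The other 4 members ranged from -0.25 (ORC2) to 0.01 (ORC1) in log2 fold in E2-2, and only ORC2 among them had an interval there that excluded 1. In E2A the interval of ORC1 lay below 1.

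CDC6 and CDT1 load the helicase, and geminin (GMNN) blocks CDT1 once replication has begun. The 2 loaders differed in direction in E2-2. CDT1 (ENSG00000167513, chromosome 16, 88803213 to 88809258), whose promoter stretch is printed above, stood at 111 CPM in vector, 123 in HEB, 126 in E2A and 141 in E2-2. It was highest in E2-2 and lowest in vector, 1.27-fold (1.19 to 1.35) apart. CDC6 (ENSG00000094804, chromosome 17, 40287633 to 40304657) stood at 155 CPM in vector, 156 in HEB, 140.2 in E2A and 134 in E2-2, so that E2-2 lay 1.16-fold (1.09 to 1.23) under vector. HEB and vector did not differ for CDC6 beyond counting error. GMNN was between 76.9 and 87.9 CPM in all 4 libraries, highest in E2-2 at 1.11-fold (1.03 to 1.20) over vector.

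The MCM2 to MCM7 proteins form the ring-shaped helicase that unwinds DNA, with 1 copy of each in every ring. Their summed level was 2674 CPM in vector, 2579 in HEB, 2444 in E2A and 2344 in E2-2. Vector thus exceeded E2-2 by 1.14-fold (1.12 to 1.16), E2A by 1.09-fold (1.08 to 1.11) and HEB by 1.04-fold (1.02 to 1.05). It was lower than in vector in all 3 libraries under each of the 3 scalings. MCM2 (ENSG00000073111, chromosome 3, 127598223 to 127622436) had the lowest fold of these genes in E2-2 against vector. It stood at 429 CPM in vector, 401 in HEB, 351 in E2A and 334 in E2-2. Vector exceeded E2-2 by 1.28-fold (1.24 to 1.33) and E2A by 1.22-fold (1.18 to 1.27).

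The 6 subunits did not differ by one common factor in E2-2. MCM4 (561 CPM in vector, 464 in E2-2) was 1.21-fold (1.17 to 1.25) lower, and MCM6 (378 and 313 CPM) also 1.21-fold (1.16 to 1.25) lower. MCM3 (367 and 320 CPM) was 1.15-fold (1.11 to 1.19) lower. MCM7 (ENSG00000166508, chromosome 7, 100092728 to 100101940) stood at 642 CPM in vector, 640.3 in HEB, 612 in E2A and 624 in E2-2, and its 1.03-fold (0.999 to 1.06) lower value was within counting error. The same held for MCM5, with 297 CPM in vector and 289 in E2-2. With total counts as the scale, MCM7 and MCM5 no longer lay below vector in E2-2. In E2A the interval lay below 1 for all 6 subunits, and in HEB for 4 of them, all but MCM6 and MCM7.

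MCM10, CDC45 and the GINS complex (GINS1 to GINS4) turn the loaded ring into an active helicase. Their summed level was 438 CPM in vector, 450.4 in HEB, 422 in E2A and 412 in E2-2. GINS1 (ENSG00000101003, chromosome 20, 25407727 to 25452628) had the highest fold in E2-2 against vector among them. It stood at 55.8 CPM in vector, 62.2 in HEB, 59.5 in E2A and 63.6 in E2-2. Its fold in E2-2 was 1.14 (1.04 to 1.25), and vector was the lowest library. GINS3 (ENSG00000181938, chromosome 16, 58295080 to 58406144) had the fewest reads of all members over the 4 libraries together, 289 in vector, 344 in HEB, 360 in E2A and 240 in E2-2. At 18.5, 20.8, 20.4 and 15.8 CPM, E2-2 lay 1.17-fold (0.983 to 1.39) under vector, a difference not detectable at this depth. MCM10 was 1.15-fold (1.08 to 1.23) and CDC45 1.07-fold (1.01 to 1.14) below vector in E2-2, CDC45 only under the main scaling. GINS2 and GINS4 were within counting error of vector in all 3 libraries.

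Polymerase alpha, with its subunits POLA1 and POLA2 and the primase subunits PRIM1 and PRIM2, makes the primer that starts each new strand. In E2A the 2 polymerase subunits were on opposite sides of vector beyond counting error. POLA2 (ENSG00000014138, chromosome 11, 65261762 to 65305589) stood at 70.5 CPM in vector, 80.8 in HEB, 85.8 in E2A and 85.2 in E2-2. Vector was the lowest library, and the fold was 1.21 (1.11 to 1.31) in E2-2, then 1.22 (1.13 to 1.32) in E2A and 1.15 (1.06 to 1.24) in HEB. POLA1, the catalytic subunit (ENSG00000101868, chromosome X, 24693919 to 24996986), stood at 71.4 CPM in vector, 73.2 in HEB, 60.8 in E2A and 65.5 in E2-2. It was 1.17-fold (1.08 to 1.28) lower in E2A, and in E2-2 its 1.09-fold (0.999 to 1.19) lower value did not exceed counting error. PRIM1 and PRIM2 lay between -0.09 and 0.25 in log2 fold in E2-2, where the interval of PRIM2 lay above 1 and that of PRIM1 included 1.

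Polymerase delta copies the lagging strand, and its members here lay from -0.46 to 0.42 in log2 fold in E2-2. POLD2, an accessory subunit (ENSG00000106628, chromosome 7, 44114681 to 44124358), stood at 166 CPM in vector, 168 in HEB, 137 in E2A and 120.0 in E2-2. Its fold in E2-2 was the lowest of all 45 members, a factor of 1.38 (1.30 to 1.47) under vector. In E2A POLD2 was 1.21-fold (1.14 to 1.28) under vector, while HEB and vector did not differ beyond counting error. POLD3, another accessory subunit (ENSG00000077514, chromosome 11, 74493851 to 74669117), stood at 67.8 CPM in vector, 76.4 in HEB, 74.9 in E2A and 90.7 in E2-2. The E2-2 library was highest, 1.34-fold (1.23 to 1.45) over vector. The catalytic subunit POLD1 was below vector by 1.14-fold (1.07 to 1.21) in E2-2 and by 1.10-fold (1.04 to 1.17) in E2A. POLE, the catalytic subunit of polymerase epsilon, which copies the leading strand, stood at 1060.3 CPM in vector, 1013 in HEB, 1104 in E2A and 1176 in E2-2. POLE was above vector by 1.11-fold (1.09 to 1.13) in E2-2 and 1.04-fold (1.02 to 1.06) in E2A. In HEB it was 1.05-fold (1.02 to 1.07) below vector. Its accessory subunit POLE2 was between 24.0 and 27.4 CPM in the 4 libraries, with every interval against vector including 1.

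PCNA is the clamp that holds polymerases on DNA, and RFC1 to RFC5 form the loader that opens it. PCNA (ENSG00000132646, chromosome 20, 5114953 to 5126626) stood at 376 CPM in vector, 394 in HEB, 419 in E2A and 443 in E2-2, in that order from lowest to highest. Its fold over vector was 1.18 (1.14 to 1.22) in E2-2, 1.11 (1.08 to 1.15) in E2A and 1.05 (1.01 to 1.08) in HEB. RFC1, the large loader subunit (ENSG00000035928, chromosome 4, 39287456 to 39366375), stood at 170.3 CPM in vector, 162 in HEB, 141 in E2A and 147 in E2-2. It was lower in E2A (1.21-fold, 1.14 to 1.28) and E2-2 (1.16-fold, 1.09 to 1.22) than in vector. RFC2 to RFC5 lay between -0.08 and 0.05 in log2 fold in E2-2, all within counting error. Against vector the intervals of RFC2 and RFC4 lay above 1 in HEB, and that of RFC5 in E2A.

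Replication protein A, made of RPA1, RPA2 and RPA3, coats single-stranded DNA behind the helicase. RPA3 (ENSG00000106399, chromosome 7, 7636518 to 7718607) stood at 22.5 CPM in vector, 23.4 in HEB, 22.8 in E2A and 26.5 in E2-2, 1.18-fold (1.02 to 1.36) higher in E2-2 than in vector. RPA1 (ENSG00000132383, chromosome 17, 1829702 to 1900082) stood at 81.5, 84.7, 77.4 and 76.7 CPM in vector, HEB, E2A and E2-2, and every interval against vector included 1. RPA2 was 1.09-fold (1.02 to 1.16) above vector in HEB, and its intervals in E2A and E2-2 included 1. FEN1 and LIG1 trim and join Okazaki fragments, the short pieces of the lagging strand. LIG1 (ENSG00000105486, chromosome 19, 48115445 to 48170603) stood at 148 CPM in vector, 164 in HEB, 161 in E2A and 167 in E2-2, with vector lowest and a fold of 1.12 (1.06 to 1.19) in E2-2. FEN1 (ENSG00000168496, chromosome 11, 61792637 to 61797244) stood at 129, 135.9, 138 and 135.5 CPM in the same order. Its fold over vector was 1.05 (0.988 to 1.12) in E2-2 and 1.07 (1.01 to 1.14) in E2A.

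The enzymes that make DNA precursors summed to a higher level in all 3 E protein libraries than in vector, although RRM1 did not stand higher in E2A. RRM1 and RRM2 form ribonucleotide reductase, TYMS makes thymidylate and TK1 salvages thymidine. Their summed level was 675 CPM in vector, 810.3 in HEB, 830.4 in E2A and 957 in E2-2, a fold over vector of 1.20 (1.17 to 1.23), 1.23 (1.20 to 1.26) and 1.42 (1.38 to 1.45). RRM2 made up most of the rise of this sum in each of the 3 libraries. No other role group was more than 1.10-fold higher than vector in any library. RRM2, the regulatory subunit that cells make in S phase (ENSG00000171848, chromosome 2, 10122328 to 10131419), stood at 315 CPM in vector, 402 in HEB, 437 in E2A and 515 in E2-2. It was the highest of all 45 members in each library against vector, at 1.63-fold (1.58 to 1.69) for E2-2, 1.39-fold (1.34 to 1.44) for E2A and 1.28-fold (1.23 to 1.32) for HEB.

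TK1 (ENSG00000167900, chromosome 17, 78174075 to 78187233) showed the same order of libraries, at 122 CPM in vector, 147 in HEB, 156 in E2A and 174 in E2-2. Its fold in E2-2 was 1.43 (1.35 to 1.52), the second largest among the members. TYMS stood at 49.3 CPM in vector and at 56.8 to 59.5 in the E protein libraries, which did not separate from each other. RRM1 (ENSG00000167325, chromosome 11, 4094707 to 4138876), the catalytic subunit that is present through much of the cell cycle, stood at 188 CPM in vector, 201 in HEB, 180.1 in E2A and 209 in E2-2. It was 1.11-fold (1.05 to 1.17) higher in E2-2 than in vector, and in E2A its value was 1.05-fold (0.995 to 1.10) lower. RRM2 was thus further above vector than RRM1 in each E protein library.

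**Figure D4:**
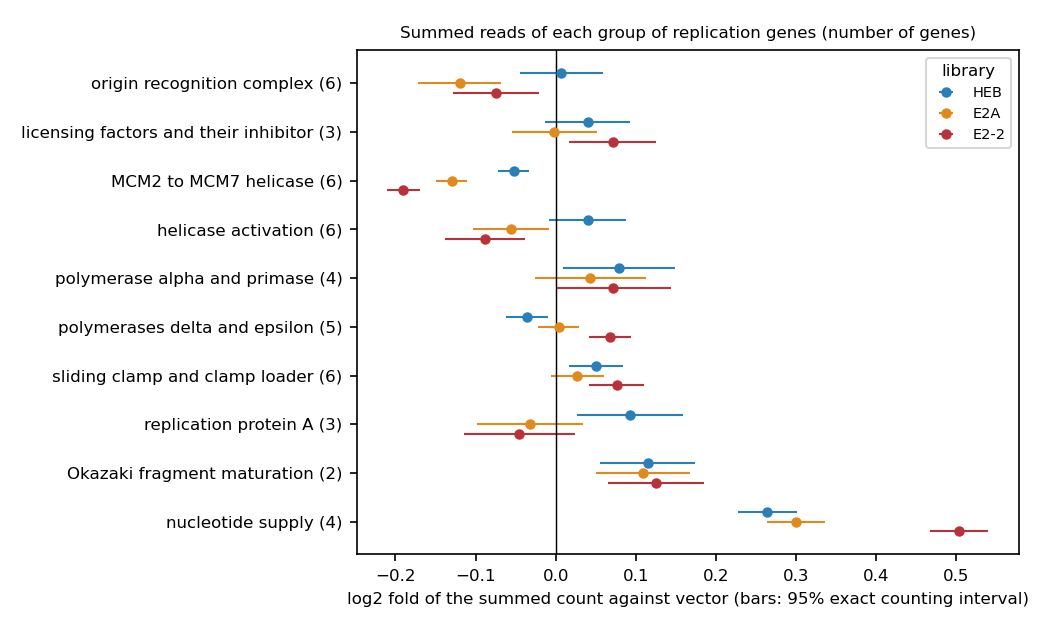
Log2 fold of the summed counts of each role group against vector, with the number of genes in parentheses and bars for 95% exact counting intervals. Nucleotide supply stands apart to the right in all 3 libraries (957 CPM in E2-2 against 675 in vector), and the MCM2 to MCM7 helicase lies farthest to the left in E2-2 (2344 against 2674 CPM).

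Ordered across the 4 libraries, the members did not follow 1 pattern. HEB was the highest library for 18 of 45 members (40.0%), against 22.3% of 15684 genes with at least 30 reads over the 4 libraries. E2-2 was highest for 14 members (31.1%, all genes 31.3%), vector for 10 (22.2%, all genes 28.4%) and E2A for 3 (6.67%, all genes 17.9%). E2-2 was the lowest library for 16 members (35.6%, all genes 34.6%). CDT1, GINS4, PCNA, RRM2 and TK1 had their levels in the order vector, HEB, E2A, E2-2 from lowest to highest, which is 11.1% of members against 12.4% of all genes. For GINS4 the 4 levels lay within counting error, and it left this order when total counts set the scale. MCM2 and MCM3 took the reverse order, 4.44% of members against 10.9% of all genes. With total counts as the scale, HEB was highest for 14 members (31.1%, all genes 19.1%) and E2-2 for 20 (44.4%, all genes 35.8%). The median member's highest library exceeded its lowest by 1.16-fold, and the extremes were 1.04-fold and 1.63-fold (RRM2).

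**Figure D5:**
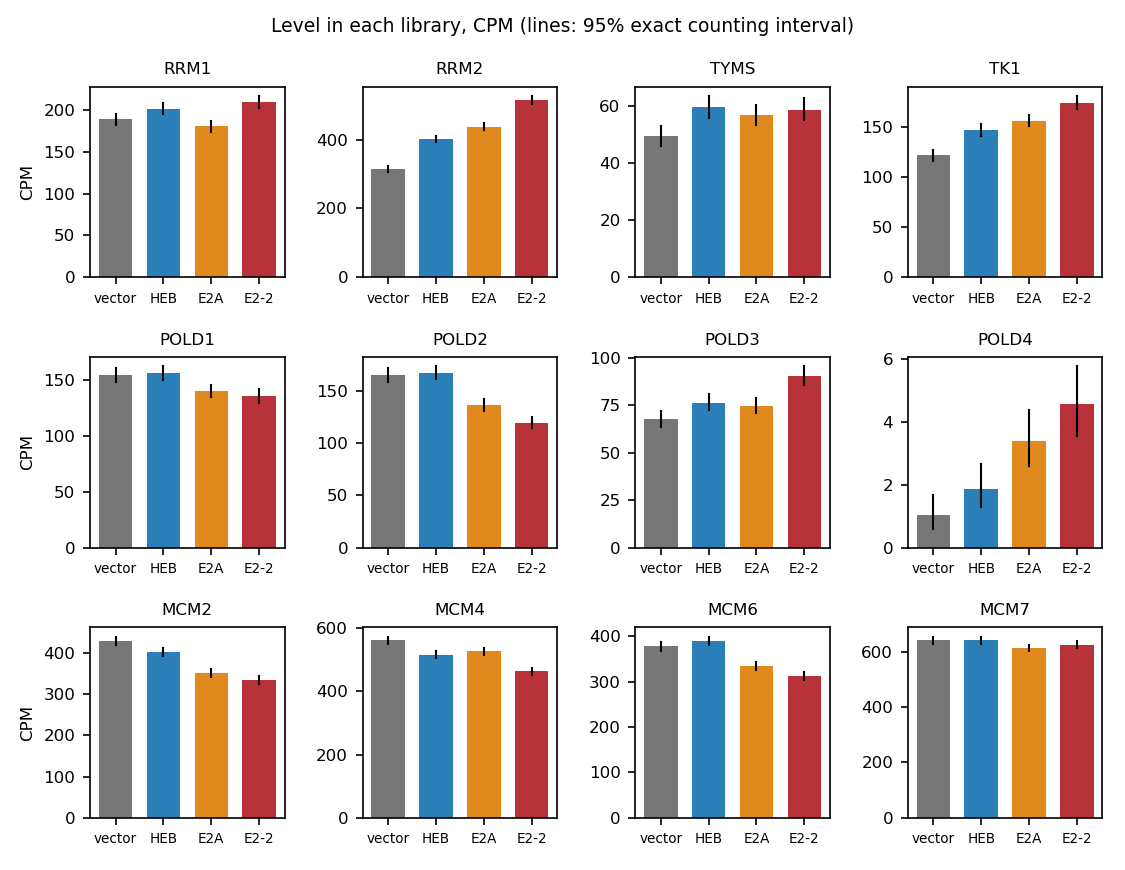
Level in CPM of the 4 nucleotide supply genes, the 4 polymerase delta subunits (POLD4 is not among the 45) and 4 helicase subunits, 1 bar per library from 0, with lines for 95% exact counting intervals. RRM2 goes from 315 CPM in vector to 515 in E2-2 and POLD2 from 166 to 120.0, while MCM7 stays between 612 and 642; each panel has its own vertical scale.

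The E protein libraries were also compared with each other. No member was called in E2-2 against E2A (5.25% of all genes tested), E2-2 against HEB (7.66%) or E2A against HEB (3.08%), and none passed 1.5-fold (11.1%, 16.8% and 7.72% of all genes). Among genes with at least 500 reads, in the same order, the 2-fold rule called only 1.64%, 3.32% and 0.730%. The 1.5-fold rule called 5.64%, 10.7% and 2.74% of those genes. The extreme member in E2-2 against HEB was POLD2, 1.40-fold (1.32 to 1.48) lower in E2-2, while RRM2 was 1.28-fold (1.24 to 1.32) higher. In E2-2 against E2A the extremes were GINS3, 1.29-fold (1.09 to 1.52) lower, and POLD3, 1.21-fold (1.12 to 1.31) higher. In E2A against HEB they were ORC4, 1.30-fold (1.16 to 1.46) lower, and POLE, 1.09-fold (1.07 to 1.11) higher. The interval lay above 1 for 9 members and below for 20 in E2-2 against HEB (24.7% and 28.8% of all genes, 27.0% and 39.4% of those with at least 500 reads), but for 13 and 13 when total counts set the scale. In E2A against HEB it lay above 1 for 4 and below for 18 (7 and 17 by total counts; 18.5% and 21.7% of all genes by the main scale, 21.1% and 30.5% of those with at least 500 reads). In E2-2 against E2A the numbers were 10 and 8 (18 and 6 by total counts; 21.4% and 23.3% of all genes, 25.7% and 31.2% of those with at least 500 reads).

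Other genes of the pathway were examined as lists. Of 41 further fork and origin genes, 2 were called higher and 0 lower in E2-2 and in E2A, and none was called in HEB; the medians of their log2 folds were 0.15, 0.10 and 0.11. Of all genes tested, 8.45% were called higher in E2-2 and 4.89% in E2A, and 3.78% were called in either direction in HEB. These counts are thus no more than the background. The called genes were SLBP and POLD4. SLBP, which binds the end of histone messages, stood at 141 CPM in vector, 180.4 in HEB, 383 in E2A and 400 in E2-2. It was 2.83-fold (2.70 to 2.98) higher in E2-2 and 2.71-fold (2.58 to 2.85) in E2A, so E2A and E2-2 stood together above vector and HEB. POLD4, the smallest subunit of polymerase delta, had 16 reads in vector, 31 in HEB, 60 in E2A and 69 in E2-2. It was 4.44-fold (2.55 to 8.19) higher in E2-2 and 3.31-fold (1.88 to 6.16) in E2A, beside 1.83-fold (0.969 to 3.58) in HEB.

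Of 20 genes for E2F factors, their pocket protein partners and other G1/S regulators, 2 were called higher and 0 lower in E2-2, and none in E2A or HEB. In E2-2 this is near the 8.45% of all genes called higher. In E2A 6.47% and in HEB 3.78% of all genes tested were called in either direction. The medians were 0.26, 0.23 and 0.17 on the log2 scale. The called genes were E2F2, an activating E2F, and E2F8, a repressing one. E2F2 stood at 59.5 CPM in vector, 74.7 in HEB, 97.3 in E2A and 146 in E2-2, 2.45-fold (2.27 to 2.65) higher in E2-2. E2F8 stood at 30.6, 39.8, 46.8 and 62.4 CPM in the same order, 2.04-fold (1.82 to 2.28) higher in E2-2. Of the 11 replication checkpoint genes, with 12 rows in the table because ATRIP has 2, 11 rows had enough reads and none was called in any library against vector. Over all genes tested 12.0%, 6.47% and 3.78% were called in E2-2, E2A and HEB, so this list is too short to stand apart.

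Reads of 14 members can be mixed with those of another gene, since their loci overlap a gene with at least 30 reads. Whether reads were assigned by strand is not given in the labels. For GINS2, PRIM1, RFC4, FEN1 and TYMS the overlapping gene held more than 50% as many reads as the member. RRM2, TK1, POLD2, PCNA and CDT1 had no such neighbour. Processed pseudogenes can also share reads with some members, which was not tested.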

How the data were processed

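TruSeq RNA libraries were sequenced on a HiSeq2500, per the labels' protocols. The submitters' processing notes list HTSeq 0.9.1 and TopHat2 2.0.9 among their tools, and both hg19 and hg38, with no role for any. Annotation and strand setting: not given in the sources used here. The authors deposited 1 table with whole-number read counts per gene and library. The same table holds FPKM values, per the file headers; they equal the counts divided by the library total and by a gene length the table does not give. For 9.49% to 9.54% of genes with at least 100 reads this length is longer than the gene's locus, so levels are not compared between genes. Gene positions are those of the table, and all 45 members overlapped their RefSeq gene on GRCh38.p14.

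Counts were scaled over the 4 libraries by TMM (edgeR 4.0.16, R 4.3.3), and CPM use these scaled totals. Folds have 95% exact conditional binomial (Clopper-Pearson) intervals, which cover counting error only. Counts of 0 were set to 3 reads. Scaling by DESeq2 1.42.0 size factors and by total counts, FPKM, other read filters and a 1.5-fold rule were alternatives. Python 3.11.15, numpy 2.4.6, scipy 1.17.1, pandas 2.3.3 and matplotlib 3.10.9 were used. The calling step was run on simulated counts that held counting error only, so it does not bear on variation between cultures.

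The members and lists were chosen with earlier results of these data known. In each of 10 role groups the highest and lowest member in E2-2 against vector is given with all values. MCM3 to MCM6, GMNN, POLD1, POLE, TYMS and TK1 were added after their values were seen, as were the 500-read background, the interval counts and the 2 library orders. In other lists the genes named are those called at 2-fold against vector.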

Additional observations from a re-analysis of the deposited data

How the results depend on the processing

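With 1 library per group nothing limits the difference between cultures, and the depth bounds only counting error. The number of members called at 2-fold was 0 in each direction and comparison under every scaling, unit and read filter tried, and without the 5 members that overlap a well-counted gene. At 1.5-fold the number called higher in E2-2 against vector was 1. The members' median log2 fold in E2-2 against vector went from -0.04 to 0.01 with total counts. When total counts set the scale, MCM7 in E2-2 against vector was at 0.01 (log2), members with an interval above 1 numbered 18 in E2-2 against E2A and 7 in E2A against HEB, those below 1 numbered 13 in E2-2 against HEB, 6 members were lowest in HEB (20.5% of all genes; 3 members by the main scale), and 4 took the order from E2-2 up to vector (8.89%, all genes 9.60%); the cause was not tested. In the 250 bases before the start, the share of all promoters with a match was 2.79% for E2F, 32.0% for CCAAT, 28.7% for the E-box and 13.3% for CHR. In the whole 300-base window, limited to genes with at least 30 reads, it was 4.73% for E2F, 33.1% for the E-box and 10.5% for CHR. No paired analysis was possible because each group has 1 library and the labels give no replicate numbers.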

Other observations

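Genes of nucleotide metabolism outside the 45 members, chosen after their values were seen, are set beside RRM2 and TK1 here. DCK, which salvages deoxycytidine, stood at 58.5 CPM in vector, 69.7 in HEB, 86.1 in E2A and 99.7 in E2-2, a fold of 1.70 (1.57 to 1.85) in E2-2. RRM2B, the alternative small subunit of ribonucleotide reductase, stood at 28.5, 33.3, 35.0 and 43.3 CPM in the same order, 1.52-fold (1.34 to 1.71) higher in E2-2. DUT, which breaks down dUTP, was 1.14-fold (1.08 to 1.21) higher in E2-2. DTYMK and SAMHD1 did not differ from vector in E2-2 beyond counting error, at 1.07-fold (0.955 to 1.20) and 1.12-fold (0.977 to 1.30).

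UHRF1, which reads methylated DNA behind the fork, was highest in E2A among these libraries, at 188 CPM in vector, 242 in HEB, 329 in E2A and 219 in E2-2. TFDP2, a partner of E2F proteins, was also highest in E2A, at 152, 153, 229 and 164 CPM in the same order. Both were chosen after their values were seen, and neither reached 2-fold.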
